A study of Mus musculus with 12 samples.

Results

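Expression of 8 genes that start, restrain or clear blood clotting was followed in mouse liver during concanavalin A (ConA) hepatitis. They were F3, Tfpi, Thbd, Procr, Plaur, Plau, Plat and Thbs1, chosen by gene symbol, and every probe set that the array annotation assigned to one of them was taken. This gave 14 probe sets out of 45037 tested, and 8 genes out of 18193 with a probe set of their own. One further probe set that lists Thbs1 together with another gene was left out. Whole-liver RNA of male Balb/c mice aged 8 to 10 weeks was measured on 12 Affymetrix arrays. The groups, with 3 arrays each, were a 0 h control and 3 groups whose livers were taken 1, 3 or 6 h after a tail vein injection of 20 mg/kg ConA, a plant lectin that activates T cells. The labels call the 0 h mice untreated, whereas the methods of the study state that controls received PBS, and no control was taken at a later hour, so that ConA and time of day cannot be told apart.

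Values are the signals of each probe set on the deposited linear scale. Before log2 was taken, lower signals were raised to a floor of 3.04, which is the 20th percentile of all signals. Tests came from 1 limma fit over the 12 arrays, and a probe set was called where its p, adjusted by Benjamini-Hochberg over all 45037 probe sets, was under 0.05. The labels do not say whether replicates were separate animals, so that p measures the spread between these samples, which may be technical. The median signal of an array lay between 13.7 and 20.4, and the number of arrays limits the precision. Over all probe sets, the median log2 change against the control group was 0.07 at 1 h, -0.18 at 3 h and 0.04 at 6 h, and it was -0.27 at 3 h against 1 h and 0.24 at 6 h against 3 h. Changes are given as deposited unless they are said to be relative to that median. The 8 hepatocyte markers, among them Alb and Apoa1, had a summed signal of 62426 to 65983 in the control group, 64472 to 70442 at 1 h, 58564 to 60730 at 3 h and 60003 to 65650 at 6 h, and limma called none of them at any time point against the control group (unadjusted p under 0.05 for 1 at 1 h, 0 at 3 h and 1 at 6 h).

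F3 encodes tissue factor, the membrane receptor of factor VII that starts clotting when blood meets it, and Tfpi encodes the inhibitor of the tissue factor and factor VIIa complex. Thbd encodes thrombomodulin, an endothelial receptor that turns thrombin from a clotting enzyme into an activator of protein C, and Procr encodes the endothelial protein C receptor that presents protein C to it. Plau and Plat encode the urokinase and tissue-type plasminogen activators, which make the clot-dissolving enzyme plasmin, and Plaur encodes the urokinase receptor that holds urokinase on the cell surface. Thbs1 encodes thrombospondin 1, an adhesive glycoprotein of platelet granules and the extracellular matrix. In liver, the clotting factors themselves are largely made by hepatocytes, while thrombomodulin and the protein C receptor are known mainly from endothelial cells. The arrays were made from whole liver, in which a changed share of a cell type and a changed amount of RNA per cell cannot be told apart.

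The promoters of the 3 genes that had both a called change of more than 3-fold and a window in the RefSeq promoter table (mouse build GRCm38.p6) are shown because these genes rose at different times. Each window runs from 250 bases before to 50 bases after a transcript start that the table lists, 5′ to 3′ on the gene's strand. That start is the first base of the RefSeq gene for F3, but lies 92 bases inside the gene for Procr and 1546 bases inside it for Plaur, so that the Plaur window is not at the outermost start of its gene. Capitals mark matches to AP-1 (TGANTCA), Sp1 (GGGCGG), EGR (GCGNGGGCG) and the TATA box (the letters TATAAA), searched on both strands, and the Plaur EGR match lies within its Sp1 matches. The positions are chr3:121723287-121723586 for F3, chr7:24462233-24462532 for Plaur and chr2:155750967-155751266 for Procr, all on the forward strand.
F3: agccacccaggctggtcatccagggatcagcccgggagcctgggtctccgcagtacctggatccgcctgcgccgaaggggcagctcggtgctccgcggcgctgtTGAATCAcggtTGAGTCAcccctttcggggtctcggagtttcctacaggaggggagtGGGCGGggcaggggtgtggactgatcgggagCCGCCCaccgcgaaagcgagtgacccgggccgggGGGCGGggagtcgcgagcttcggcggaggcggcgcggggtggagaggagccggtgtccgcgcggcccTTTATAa
Plaur: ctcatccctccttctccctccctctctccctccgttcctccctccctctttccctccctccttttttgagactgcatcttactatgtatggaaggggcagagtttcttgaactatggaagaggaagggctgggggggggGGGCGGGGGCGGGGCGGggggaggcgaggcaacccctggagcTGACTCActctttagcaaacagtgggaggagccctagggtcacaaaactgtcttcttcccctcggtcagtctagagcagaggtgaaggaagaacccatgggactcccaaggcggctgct
Procr: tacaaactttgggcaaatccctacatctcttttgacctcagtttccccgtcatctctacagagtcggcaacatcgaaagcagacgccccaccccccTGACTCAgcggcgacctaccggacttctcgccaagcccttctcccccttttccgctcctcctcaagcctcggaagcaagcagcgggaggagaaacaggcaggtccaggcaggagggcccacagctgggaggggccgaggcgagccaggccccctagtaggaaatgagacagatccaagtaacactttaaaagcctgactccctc
Counted from the listed start, F3 held AP-1 matches that began at -146 and -135, Plaur had 1 at -69 and Procr 1 at -154. An AP-1 match reads the same letters on both strands apart from its middle base, and each was counted once. Of the 32851 windows in the table, 7.81% held an AP-1 match, 35.7% Sp1, 5.55% EGR and 13.6% TATA. F3 had Sp1 matches at -89, -58 and -24 and Plaur at -111, -105 and -100, whereas Procr had none. The 2 windows listed for Tfpi held Sp1 matches, 1 a window, and a TATA match in the first, and no AP-1 match. Their listed starts lie 16 and 2601 bases inside the gene, so that the second window is not at its outermost start. The TATA match of F3 began at 44, after the listed start, and that of Tfpi at -127, both on the opposite strand. No match to the NF-kB motif, present in 8.46% of all windows, was found in any of the 5 windows. A match is only a run of letters.

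**Figure D1:**
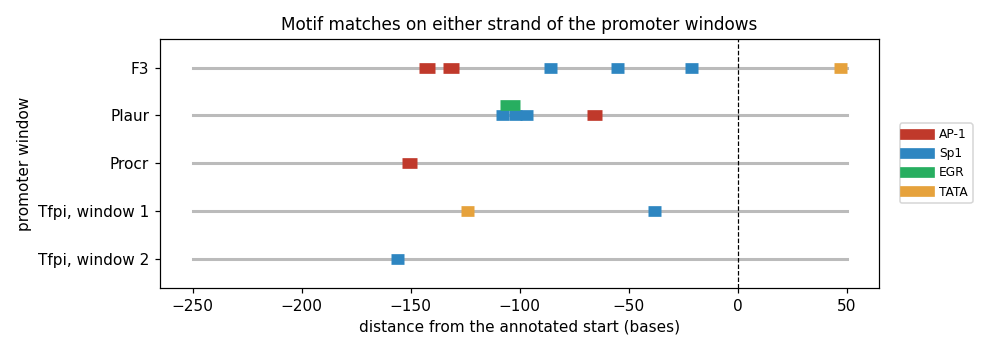
Motif matches in the promoter windows of F3, Plaur, Procr and Tfpi, plotted against the distance from the listed transcript start in bases, with 1 row per window. F3 has 2 AP-1 matches, Plaur and Procr have 1 each, and the 2 Tfpi windows have none. The listed starts of Plaur and of the second Tfpi window lie 1546 and 2601 bases inside their genes.

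Over the 4 time points, 6 of the 14 probe sets, 1 each of F3, Tfpi, Thbd, Procr, Plaur and Thbs1, varied by the F test of the limma fit, where 28.1% of all probe sets did. Against the control group, called probe sets numbered 1 at 1 h, 3 at 3 h and 5 at 6 h, and each of these calls was a rise. At an unadjusted p under 0.05, limma gave 2 rises and 0 falls at 1 h, 6 rises and 3 falls at 3 h, and 5 rises and 1 fall at 6 h. The shares of all probe sets at that unadjusted threshold were 8.61% for rises and 3.03% for falls at 1 h, 6.59% for rises and 20.4% for falls at 3 h, and 18.1% for rises and 12.7% for falls at 6 h. Of all probe sets, the share called at 1 h was 1.29% for rises and 0.255% for falls. It was 3.77% for rises and 9.83% for falls at 3 h, and 12.0% for rises and 8.37% for falls at 6 h. At 3 h against 1 h, 2 were higher and 1 lower, beside 2.09% and 12.8% of all probe sets, and at 6 h against 3 h 1 was higher and 1 lower, beside 14.3% and 2.42%. The median log2 change of the 14 probe sets was 0.46, 0.47 and 0.29 at 1, 3 and 6 h, beside 0.07, -0.18 and 0.04 over all probe sets. Calls against the control group took different courses. Plaur was called higher at every time point, Thbd from 3 h, Procr and Thbs1 at 6 h, and F3 at 3 h alone. Thbd was not called at 1 h but had a log2 change of 0.91 there, as it did at 3 h. This pattern of calls shifted for several genes when single arrays were left out.

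**Figure D2:**
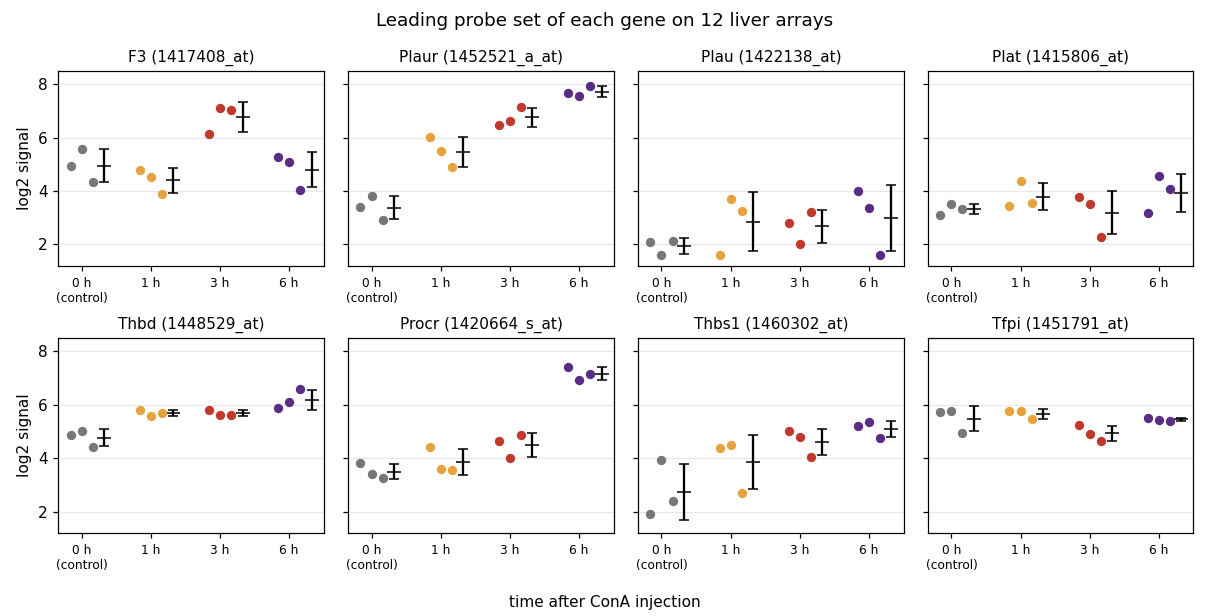
Log2 signal of the leading probe set of each of the 8 genes, after the floor, at 0 h (control) and 1, 3 or 6 h of ConA, with 1 point per array and, beside the 3 points of a group, their mean and SD. F3 peaks at 3 h, at linear signals of 69.8 to 139, while Plaur and Procr are highest at 6 h, at linear signals of 187 to 247 for Plaur and 122 to 173 for Procr.

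F3 rose at 3 h and was back near the control signals at 6 h. Its signals were 30.4, 47.6 and 20.3 in the control group, 27.8, 23.1 and 14.8 at 1 h, 69.8, 139 and 132 at 3 h, then 38.7, 33.8 and 16.6 at 6 h. All 3 arrays at 3 h lay above all 9 others, and the groups at 0 h, 1 h and 6 h overlapped. The rise was 3.52-fold at 3 h against the control group (log2 change 1.82, SE 0.45, adjusted p = 0.0272 by limma) and 1.99 on the log2 scale relative to the median of all probe sets. It was 5.14-fold at 3 h against 1 h (adjusted p = 0.0102), and at 6 h F3 fell by 1.96 on the log2 scale against 3 h (3.90-fold, adjusted p = 0.0172). At 1 h and at 6 h the changes against the control group were -0.54 (adjusted p = 0.704) and -0.15 (adjusted p = 0.902), neither called.

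The call of F3 at 3 h against 1 h held under every alternative run, with adjusted p from 0.00213 to 0.0388. The call against the control group was lost without control replicate 1 (adjusted p = 0.0760), control replicate 3 (0.0779), 3 h replicate 2 (0.0876) or 3 h replicate 3 (0.0887) and in a fit of only the 2 groups (0.0733), with log2 changes of 1.52 to 1.82. The fall of F3 at 6 h against 3 h was lost without 3 h replicate 2 (adjusted p = 0.0572), 3 h replicate 3 (0.0600) or 6 h replicate 3 (0.0522) and with only the 2 groups in the fit (0.0569).

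Tfpi, the inhibitor of the step that F3 starts, had 4 probe sets, whose log2 signals correlated with each other at Pearson's r of 0.68 to 0.87 over the 12 arrays. The leading probe set, 1451791_at, had signals of 52.8, 54.5 and 30.9 in the control group, 54.9, 55.0 and 44.0 at 1 h, 37.8, 29.7 and 25.4 at 3 h, then 46.0, 43.7 and 42.0 at 6 h. Its 3 h arrays lay below all arrays at 1 h and at 6 h but overlapped with control replicate 3. Its log2 change was -0.55 at 3 h against the control group (adjusted p = 0.160), -0.74 at 3 h against 1 h (adjusted p = 0.0593) and 0.52 at 6 h against 3 h (adjusted p = 0.164), and none was called.

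The Tfpi probe set 1438530_at had signals of 61.6, 45.4 and 30.5 in the control group, 67.6, 49.9 and 53.6 at 1 h, 30.4, 27.5 and 29.1 at 3 h, then 23.6, 33.7 and 29.0 at 6 h. It was called lower at 3 h against 1 h (log2 change -0.96, SE 0.24, adjusted p = 0.0299 by limma), with all 3 arrays below those at 1 h. At 6 h its log2 change against the control group was -0.63 (adjusted p = 0.109), whereas that of the leading probe set was -0.02, neither called, and the difference between probe sets was not tested. The other two Tfpi probe sets, 1451790_a_at and 1452432_at, had log2 changes of -0.98 (adjusted p = 0.119) and -1.40 (adjusted p = 0.089) at 3 h against 1 h, so that the change of all 4 was below 0 there and 1 was called. The median of all probe sets was also lower at 3 h, and after quantile normalization the change of 1438530_at was -0.57 (adjusted p = 0.141). That call was lost without any 1 of the 6 arrays at 1 h and 3 h, with adjusted p of 0.104, 0.0515 and 0.0522 without 1 h replicates 1, 2 and 3, and 0.0619, 0.0818 and 0.0785 without 3 h replicates 1, 2 and 3.

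Control replicate 3 was the lowest of the 3 control arrays for all 4 Tfpi probe sets and for 10 of the 14 probe sets. Its median signal over all probe sets was also the lowest of the 3, at 15.6 against 17.0 and 18.3. The share of all probe sets that were lowest on it was not counted. Without control replicate 3, 3 Tfpi probe sets were called lower at 3 h against the control group, 1438530_at (log2 change -0.87, adjusted p = 0.0275), 1451791_at (-0.81, adjusted p = 0.0200) and 1452432_at (-1.40, adjusted p = 0.0177). In that fit, 4017 of all 45037 probe sets were called lower there. At 6 h, 1438530_at was then lower as well (-0.89, adjusted p = 0.0171), and also after quantile normalization of all arrays (-0.78, adjusted p = 0.0211). At 3 h against 1 h, 1451791_at (adjusted p = 0.0180) and 1452432_at (adjusted p = 0.0117) were then called lower too. With all arrays in the fit, 1451791_at was also called there with a replicate block (adjusted p = 0.0239), among brighter probe sets (0.0257) and with 1 probe set a gene (0.0442), 1451790_a_at with the block (0.0428) and among brighter probe sets (0.0495), and 1452432_at among brighter probe sets (0.0334) and with only the 2 groups in the fit (0.0402).

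**Figure D3:**
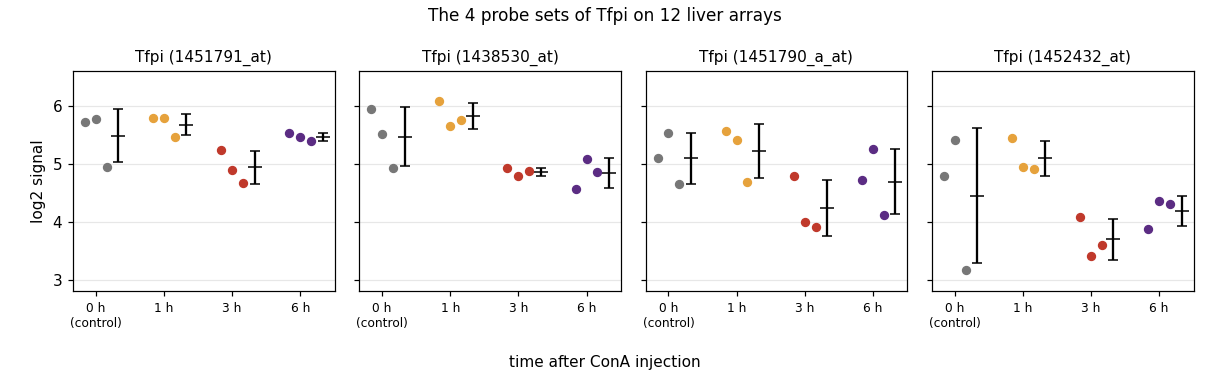
Log2 signals of the 4 Tfpi probe sets at 0 h (control) and 1, 3 or 6 h of ConA, with 1 point per array and, beside the 3 points of a group, their mean and SD. The mean of all 4 is lower at 3 h than at 1 h, and 1438530_at, called there, has linear signals of 27.5 to 30.4 at 3 h against 49.9 to 67.6 at 1 h.

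Both receptors of the protein C pathway rose. Against the control group, Thbd was called from 3 h on and Procr at 6 h. Thbd had signals of 29.2, 32.7 and 21.6 in the control group, 55.5, 48.0 and 51.3 at 1 h, 56.6, 49.8 and 48.7 at 3 h, then 58.6, 68.6 and 95.9 at 6 h. Every ConA array lay above every control array, the arrays at 1 h and 3 h overlapped, and those at 6 h lay above both. Thbd was 1.88-fold higher at 3 h (log2 change 0.91, SE 0.20, adjusted p = 0.0167) and 2.66-fold higher at 6 h (log2 change 1.41, adjusted p = 0.0011) than in the control group. At 1 h its log2 change was also 0.91, with an adjusted p of 0.0690, which was not called. The change from one time point to the next was 0.00 at 3 h against 1 h and 0.50 at 6 h against 3 h (adjusted p = 0.132), neither called. The call at 3 h was lost without 3 h replicate 1 (adjusted p = 0.0550), and without 6 h replicate 3, which changes only the shared spread at 1 h, Thbd was called at 1 h (adjusted p = 0.0377), as it was among brighter probe sets (0.0265).

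Procr had signals of 14.2, 10.6 and 9.61 in the control group, 21.4, 12.3 and 11.7 at 1 h, 25.2, 16.1 and 28.9 at 3 h, then 173, 122 and 143 at 6 h. The 6 h arrays lay far above all others, and the 3 h arrays above the control arrays. Procr was 12.8-fold higher at 6 h than in the control group (log2 change 3.67, SE 0.30, adjusted p = 5.42e-05) and 6.35-fold higher at 6 h than at 3 h (log2 change 2.67, adjusted p = 0.00112), and both calls held under every alternative run. At 3 h the log2 change against the control group was 1.01 with an adjusted p of 0.0542, and it was called in 6 of the alternatives: quantile normalization (0.0231), brighter probe sets alone (0.0195), a replicate block (0.0236), 1 probe set a gene (0.0404), and without 1 h replicate 1 (0.0303) or 3 h replicate 2 (0.0326). The 14 endothelial markers, among them Cdh5 and Stab2, had a summed signal of 1370 to 2674 in the control group, 2408 to 2649 at 1 h, 1555 to 1737 at 3 h and 1747 to 1925 at 6 h. Of these markers, limma called 0 at 1 h (1 at an unadjusted p under 0.05), 4 at 3 h, each of them lower, and 6 at 6 h, of which 2 were higher and 4 lower. The part of endothelial cells in the signals of Thbd and Procr was not tested.

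Plaur was the only one of the 14 probe sets called at 1 h, and its change at 6 h was the largest of the 14. Its signals were 10.6, 14.04 and 7.59 in the control group, 64.6, 45.1 and 29.8 at 1 h, 89.7, 99.4 and 142 at 3 h, then 203, 187 and 247 at 6 h, with no overlap between any of the 4 groups. Plaur was 4.25-fold higher at 1 h than in the control group (log2 change 2.09, SE 0.32, adjusted p = 0.0135), 10.4-fold at 3 h (log2 change 3.38, adjusted p = 0.000235) and 20.2-fold at 6 h (log2 change 4.34, adjusted p = 3.59e-05). It was 2.44-fold higher at 3 h than at 1 h (log2 change 1.29, adjusted p = 0.0280), and the log2 change of 0.96 at 6 h against 3 h was not called (adjusted p = 0.0732). The calls of Plaur at 3 h and 6 h against the control group held under every alternative run.

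The Plaur call at 1 h was lost without 1 h replicate 2 (adjusted p = 0.0529) and with only the 2 groups in the fit (0.151). That of Plaur at 3 h against 1 h was lost without 1 h replicate 2 (0.0678), 1 h replicate 3 (0.0624), 3 h replicate 2 (0.0601) or 3 h replicate 3 (0.0932), with only the 2 groups in the fit (0.0934) and with a replicate block (0.0526), while at 6 h against 3 h Plaur was called without 1 h replicate 1 (0.0499) or 1 h replicate 3 (0.0467) and among brighter probe sets (0.0272). Some neutrophil markers were called higher from 1 h on, as Plaur was, and some monocyte markers only from 3 h on. The 10 measured neutrophil markers, among them S100a8 and S100a9, had a summed signal of 101 to 148 in the control group, 879 to 1233 at 1 h, 1557 to 2205 at 3 h and 1726 to 2661 at 6 h, with 6, 8 and 9 of them called higher at 1, 3 and 6 h and 0 lower. The 6 measured monocyte markers summed to 238 to 308 in the control group, 227 to 388 at 1 h, 446 to 564 at 3 h and 909 to 974 at 6 h, with 0, 3 and 4 called higher by limma (0, 3 and 5 at an unadjusted p under 0.05). Of the 9 measured T cell markers, 0, 0 and 3 were called higher (2, 1 and 4 at an unadjusted p under 0.05) and 0 lower. Kupffer cell markers, 10 in all, had 0 calls at 1 h (3 rises at an unadjusted p under 0.05). The 3 h and 6 h groups each had 3 called falls among them, and 6 h also had 1 called rise. The part of any of these cells in the Plaur signal was not tested.

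The plasminogen activator genes Plau and Plat were called in no comparison. Plau was measured near the floor, with signals of 4.28, 1.07 and 4.40 in the control group, 1.58, 12.9 and 9.49 at 1 h, 7.01, 4.04 and 9.34 at 3 h, then 15.99, 10.3 and 0.68 at 6 h on the leading probe set, 1422138_at. The groups overlapped throughout, and 3 of the 12 arrays were at the floor. At 6 h against the control group the log2 change of Plau was 1.04, with a 95% interval of -0.51 to 2.59 (adjusted p = 0.372). Its other probe set, 1422139_at, was at the floor on 7 of 12 arrays, all 3 at 6 h among them, and correlated with the first at r = 0.03. A change of Plau within these intervals could not be seen in these arrays.

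Plat had signals of 8.68, 11.5 and 10.0 in the control group, 10.9, 20.8 and 11.7 at 1 h, 13.7, 11.4 and 4.91 at 3 h, then 9.04, 23.6 and 16.7 at 6 h on its leading probe set, 1415806_at. Its groups overlapped in every comparison, and the log2 change at 6 h against the control group was 0.61, with a 95% interval of -0.42 to 1.65 (adjusted p = 0.434). The other Plat probe set, 1458553_at, had signals of 9.96, 9.65 and 7.003 in the control group, 18.5, 12.4 and 8.60 at 1 h, 6.56, 6.46 and 3.49 at 3 h, then 7.81, 2.18 and 12.8 at 6 h. Its 3 h arrays lay below those of the control group and of 1 h, with log2 changes of -0.73 (adjusted p = 0.425) and -1.24 (unadjusted p = 0.0375, adjusted p = 0.139) that were not called. The 2 probe sets of Plat correlated at r = 0.14 over the 12 arrays. Both were dim, with mean levels at percentiles 45.3 (1415806_at) and 36.9 (1458553_at) of all probe sets. The second was at the floor on 1 array.

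Thbs1 was called higher at 6 h by both of its probe sets, which correlated at r = 0.76. The leading one, 1460302_at, had signals of 3.74, 15.2 and 5.34 in the control group, 20.8, 22.6 and 6.46 at 1 h, 32.1, 27.8 and 16.7 at 3 h, then 36.9, 40.9 and 27.4 at 6 h. The probe set 1450377_at had 13.1, 10.3 and 5.03 in the control group, 9.91, 16.7 and 10.5 at 1 h, 19.2, 24.4 and 14.5 at 3 h, then 35.6, 28.9 and 30.2 at 6 h. On both, the arrays at 3 h and at 6 h lay above those of the control group, and those at 1 h overlapped with them. Against the control group, the 6 h rise was 5.15-fold for 1460302_at (log2 change 2.36, SE 0.60, adjusted p = 0.0222) and 3.58-fold for 1450377_at (log2 change 1.84, SE 0.36, adjusted p = 0.0059). At 3 h the log2 changes were 1.87 (adjusted p = 0.0747) and 1.11 (adjusted p = 0.0758), not called.

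The 6 h call of Thbs1 held under every alternative run for 1450377_at, and for 1460302_at it was lost without control replicate 1 (adjusted p = 0.0775), control replicate 3 (0.0708), 6 h replicate 1 (0.0622) or 6 h replicate 2 (0.0706) and with only the 2 groups in the fit (0.0554). At 3 h, Thbs1 was called by 1460302_at after quantile normalization (0.0404), among brighter probe sets (0.0250), with a replicate block (0.0412) and without control replicate 2 (0.0298) or 1 h replicate 3 (0.0422). By 1450377_at it was called after quantile normalization (0.0311), among brighter probe sets (0.0277) and without control replicate 1 (0.05 after rounding). The 10 measured platelet markers, among them Pf4 and Ppbp, had a summed signal of 227 to 266 in the control group, 270 to 301 at 1 h, 296 to 333 at 3 h and 329 to 383 at 6 h, with 0, 2 and 3 called higher by limma (2, 3 and 4 at an unadjusted p under 0.05). The part of platelets in the Thbs1 signal was not tested.

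**Figure D4:**
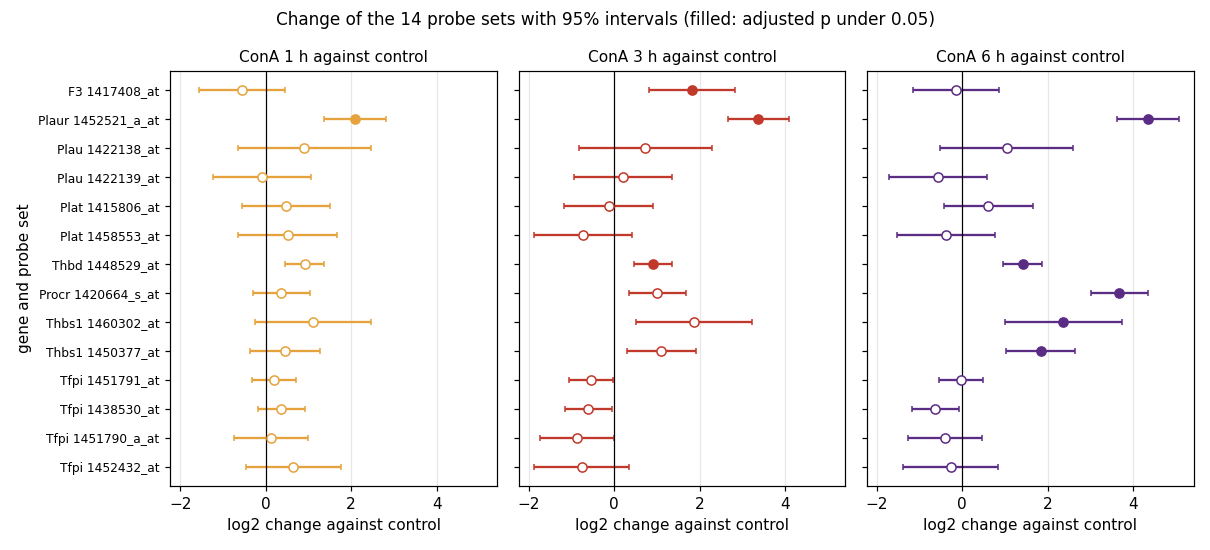
Log2 change of each of the 14 probe sets at 1, 3 and 6 h against the control group, with 95% intervals from limma, and filled points where the adjusted p is under 0.05. Plaur reaches 4.34 and Procr 3.67 at 6 h, F3 is called at 3 h with 1.82, and the intervals of Plau and Plat include 0 throughout.

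Among 18193 genes, those whose log2 signals ran closest to each member over the 12 arrays are given as a description, since the points share the same arrays and time points. For Plaur they were Srgn, the granule proteoglycan serglycin, Cytip and Lcn2, the neutrophil and acute-phase protein lipocalin 2, with Pearson's r of 0.988, 0.988 and 0.987. For Procr they were Psma5, a proteasome subunit, Eif6 and Basp1 (0.982, 0.978 and 0.976), and for Thbd they were Rhbdf1, Ifrd1 and Blcap (0.957, 0.946 and 0.941). For Tfpi they were Qk, an RNA-binding protein, Abi2 and Rab27a (0.947, 0.939 and 0.934), and for Thbs1 they were Med17, Tlr6 and Nrp (0.937, 0.921 and 0.917). For F3 they were Susd5, Nf2 and Zhx2, at 0.93, 0.92 and 0.92. Plau and Plat, the members with no call, had Pla2g2e at 0.930 and Ccdc137 at 0.865 as their nearest. Between the leading probe sets of the members, Plaur correlated with Thbd at 0.91, with Thbs1 at 0.85 and with Procr at 0.82. Thbd correlated with Thbs1 at 0.75 and with Procr at 0.74, and Procr with Thbs1 at 0.65. The lowest value was that of F3 and Tfpi, at -0.57, and none of these values was tested.

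Of 27 ligands, substrates, inhibitors and further receptors of these proteins, 23 were measured, and the others were not analysed here. Against the control group, limma called 0 of the 23 at 1 h (2 at an unadjusted p under 0.05), 1 rise and 1 fall at 3 h, and 6 rises and 2 falls at 6 h. Their median log2 change was 0.08, -0.03 and 0.24 at the 3 time points. The largest called rises at 6 h were those of Itgb2 and Itgam, the chains of the leukocyte integrin Mac-1 that associates with the urokinase receptor, and F2r, the thrombin receptor PAR1. Itgb2 had signals of 29.1 to 44.7 in the control group, 56.9 to 90.3 at 1 h, 60.8 to 88.3 at 3 h and 155 to 163 at 6 h, with called log2 changes of 2.14 at 6 h and, before that, 1.06 at 3 h (adjusted p = 0.012). F2r was at 849 to 865 at 6 h, against 344 to 503 in the control group (log2 change 1.04, adjusted p = 0.000631). Itgam was at 12.7 to 22.9 at 6 h, against 4.91 to 7.31 in the control group (log2 change 1.52, adjusted p = 0.0365). That call of Itgam was lost without any 1 of 8 arrays: control replicates 1, 2 and 3 (adjusted p = 0.0534, 0.106 and 0.0986), 1 h replicate 1 (0.0522), 3 h replicate 2 (0.0536) and 6 h replicates 1, 2 and 3 (0.0511, 0.122 and 0.0780). Itgb2 was also called at 1 h without 1 h replicate 3 (0.0361), after quantile normalization (0.0362) and among brighter probe sets (0.0205).

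At 6 h, 2 of the 23 partners fell, beside 8.37% of all probe sets, and 6 rose, beside 12.0%. The falls were those of F7, the ligand of tissue factor, and Proc, which encodes protein C. F7 was at 481 to 583 at 6 h, against 901 to 1098 in the control group (log2 change -0.90, adjusted p = 0.002), and Proc at 1884 to 2160 at 6 h, against 2675 to 2908 in the control group (log2 change -0.46, adjusted p = 0.004). At 3 h, F7 had 659 to 722, against 901 to 1098 in the control group (log2 change -0.54, adjusted p = 0.036), a call lost without control replicate 2 (0.117), control replicate 3 (0.0781), 1 h replicate 2 (0.0515), 3 h replicates 1, 2 and 3 (0.0887, 0.0663 and 0.103) or 6 h replicate 2 (0.0517). The other partners called higher at 6 h were Cd47, a receptor of thrombospondin 1 (log2 change 0.78), Pros1, the protein S cofactor of activated protein C (0.62), and Serpinf2, the plasmin inhibitor antiplasmin (0.36). The log2 changes of F10, F2, Plg and Vtn, which are also made in liver, were -0.02, 0.13, 0.02 and 0.24 at 6 h, and none was called.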

How the data were processed

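Liver RNA was hybridised to 12 Affymetrix whole-genome mouse arrays. The deposited values are linear signal intensities per probe set, made by the authors with MAS5 version 5.0 per the labels, whereas the methods name RMA. The values were read as MAS5-like, since their distributions differed between arrays, and were used without a new scaling. After a floor at 3.04 (20th percentile) log2 was taken, 64 control probe sets were left out, and 4 group means were fitted to 45037 probe sets with limma 3.58.1 in R 4.3.3 (F test and 5 contrasts, Benjamini-Hochberg adjusted p under 0.05). The fit was tested on simulated data, with changes added only to probe sets brighter on average than any member probe set. It therefore does not show how well changes at the members' signals are found. Platform symbols were updated through Entrez IDs, and genes with several probe sets are led by that of the highest mean. All members are described, with the 3 largest called rises and falls of the partners at each time point; Cd47, Pros1 and Serpinf2 were added after their values were seen. Members and lists were chosen with earlier results of these data known. Alternatives were a filter on dim probe sets, an intensity trend, quantile normalization, no floor with a pseudocount of 1, a replicate block, only the groups compared, 1 probe set a gene and leaving out each array, and those for the partners were added after seeing the data. Promoters came from RefSeq (GRCm38.p6), with windows for 4 of the 8 genes.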

Additional observations from a re-analysis of the deposited data

Results flagged for a closer look

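The change between successive time points passed its own limma test in 5 cases, on 4 probe sets. At 3 h against 1 h, the log2 change was 2.36 for F3 (adjusted p = 0.0102), 1.29 for Plaur (adjusted p = 0.0280) and -0.96 for the Tfpi probe set 1438530_at (adjusted p = 0.0299). At 6 h against 3 h it was -1.96 for F3 (adjusted p = 0.0172) and 2.67 for Procr (adjusted p = 0.00112). With 3 arrays a group, no array was tested as an outlier.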

How the results depend on the processing

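The 14 probe sets in 5 comparisons gave 1280 values under 19 alternatives, left-out arrays included. Of these, 1217 kept their side of the threshold, 30 lost a call and 33 gained one. Among values called in the main fit or the alternative, 0 reversed direction. Values called in neither were counted as kept even where their direction changed. The intensity trend and the pseudocount of 1 without a floor changed no call of the 70 comparisons of the 14 probe sets. After quantile normalization, 6 probe sets were higher at 3 h and 1 lower at 6 h against the control group and 0 were lower at 3 h against 1 h, and among the partners 1 was higher at 1 h and 3 at 3 h. Of all 45037 probe sets, 2739 were then higher at 3 h and 5350 lower at 6 h against the control group. At 3 h against 1 h, 1559 were lower. With probe sets brighter than the median alone, 2 member probe sets were higher at 1 h and 6 at 3 h against the control group, 4 lower at 3 h against 1 h and 2 higher at 6 h against 3 h, and 1 partner was higher at 1 h. Of the 22518 probe sets kept by this filter, 791 were higher at 1 h and 1898 at 3 h against the control group. At 3 h against 1 h 7197 were lower, and at 6 h against 3 h 7310 were higher. The filter left out the Plau and Plat probe sets. With a replicate block, 5 member probe sets were higher at 3 h against the control group, and at 3 h against 1 h 1 was higher and 3 lower. Of all 45037 probe sets, 1658 were higher at 3 h against the control group. At 3 h against 1 h, 915 were higher and 5681 lower. Residuals of the 18 pairs of arrays with the same number correlated at -0.011 to 0.038 and those of the 36 other pairs at -0.036 to 0.029. Whether array numbers pair the samples was not tested. With only the groups compared in the fit, 0 member probe sets were higher at 1 h, 1 was higher and 2 lower at 3 h against 1 h, 0 lower at 6 h against 3 h, and 0 partners higher at 3 h. Of all 45037 probe sets, 181 were higher at 1 h. At 3 h against 1 h 650 were higher and 3139 lower, and at 6 h against 3 h 816 were lower. With a pseudocount of 1, 0 partners were lower at 3 h. Leaving out single arrays gave 0 to 2 member probe sets higher at 1 h, 0 to 3 lower at 3 h, 0 to 1 lower at 6 h, 1 to 2 higher and 0 to 3 lower at 3 h against 1 h, and 1 to 2 higher and 0 to 1 lower at 6 h against 3 h, and among the partners 0 to 1 higher at 1 h, 1 to 2 higher at 3 h and 0 to 1 lower at 3 h. Of all probe sets, it gave 382 to 638 higher at 1 h, 2521 to 4762 lower at 3 h and 2833 to 3915 lower at 6 h. At 3 h against 1 h it gave 660 to 966 higher and 2718 to 5878 lower. At 6 h against 3 h it gave 3692 to 6707 higher and 718 to 1140 lower. Smaller relative changes in a count are not listed here. When single arrays were left out, such changes occurred in the rises at 3 h and 6 h against the control group. Calls of F3, Thbd, Procr and Thbs1 were lost or gained there, as given above. The cause of these changes was not tested. Signal near the floor limits both Plau probe sets, and low signal limits both Plat probe sets.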
